A study of Rattus norvegicus with 12 samples.

Results

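Promoter DNA methylation was compared between 2 groups of kidneys from male offspring of stroke-prone spontaneously hypertensive (SHRSP) rats, an inbred strain with genetic hypertension, that differed in postnatal protein intake after the same maternal diet. In the mLP-LP group the dam was fed a low-protein diet (9% casein) during pregnancy and the offspring was also fed 9% casein after separation from the dam. In the mLP-CN group the dam was fed the same 9% casein diet and the offspring was fed the control diet (20% casein). Every offspring was 6 weeks old at collection, and all dams and pups received the control diet between delivery and separation. The comparison used 6 of the 12 arrays of the study, chosen by the diets in their labels. They were replicates 10, 11 and 12 of the mLP-LP group and replicates 4, 5 and 6 of the mLP-CN group. The other arrays were 3 of the mCN-CN group (20% casein for dam and offspring) and 3 of the mLP-HP group (dam 9% and offspring 40% casein). They were normalized together with these 6, and they entered the fit to estimate the spread. Whole kidney was used, so a change in the make-up of the tissue and a change within cells cannot be told apart, and the array probes carry no gene names against which kidney markers could be checked.

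Methylation at promoters, the stretches around transcription start sites, is a covalent mark on cytosines that follow in the sequence before guanines. Densely methylated promoters are generally associated with silent genes, and the mark is copied at cell division, which is why diet in early life has been studied as a source of lasting marks. In methylated DNA immunoprecipitation followed by array hybridization (MeDIP-chip), an antibody against 5-methylcytosine enriches methylated fragments, which are labelled with Cy5 and hybridized together with Cy3-labelled input DNA.

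The level reported here is the mean over the probes of a promoter of the normalized log2 ratio of Cy5 to Cy3. It is a relative enrichment, which depends on how many cytosines a fragment can carry as well as on how many are methylated, and not a fraction of methylated cytosines. The array held 172669 probes of 45 to 60 bases in build rn4 of the rat genome, and these were joined into 16123 regions, of which 16023 with at least 3 probes were tested and are called promoters below. A promoter had a median of 10 probes over 1665 bp.

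The arrays compared were scanned at different times. All 3 mLP-CN arrays and mCN-CN replicate 3 belonged to 1 scan, mLP-LP replicate 10 was scanned on another day together with mLP-HP replicates 8 and 9, and mLP-LP replicates 11 and 12 were scanned together on yet another day. No scan and no day held arrays of both groups, so that the postnatal diet and the scan cannot be told apart within a scan. Background-uncorrected median Cy3 intensity was 151 to 166 on the mLP-CN arrays, and 154, 113 and 95 on mLP-LP replicates 10, 11 and 12. Median Cy5 intensity was 94 to 103 on the mLP-CN arrays and 119.5 to 131.5 on the mLP-LP arrays. On these 6 arrays, 86.8% to 90.8% of the probes had a Cy3 signal well above background, and 69.9% to 73.1% a Cy5 signal. The labels do not say that replicates were separate animals, so p-values measure the spread between arrays.

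Replicate 10 resembled the mLP-HP arrays of its own scan more than the other mLP-LP arrays. Over the 16023 promoters, Pearson's r of its levels was 0.910 with mLP-LP replicate 11 and 0.927 with replicate 12, whereas it was 0.983 and 0.981 with mLP-HP replicates 8 and 9. With mLP-HP replicate 7, from another scan of the same day, r was 0.969. These correlations are across promoters that share the probes and their base composition and serve as a description only. Replicates 11 and 12, which shared a scan, had an r of 0.972 with each other, and r of 0.960 to 0.970 with mCN-CN replicates 1 and 2, which were from a different scan. Among the mLP-CN arrays r was 0.958 to 0.962. Against the mLP-CN arrays, replicate 10 had the lowest values of the group, with r of 0.858 to 0.901, compared with 0.905 to 0.925 for replicate 11 and 0.888 to 0.920 for replicate 12. The difference between replicate 10 and the mean of replicates 11 and 12 had an SD of 0.15 (log2) over promoters, while the difference between replicates 11 and 12 had an SD of 0.09.

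**Figure D1:**
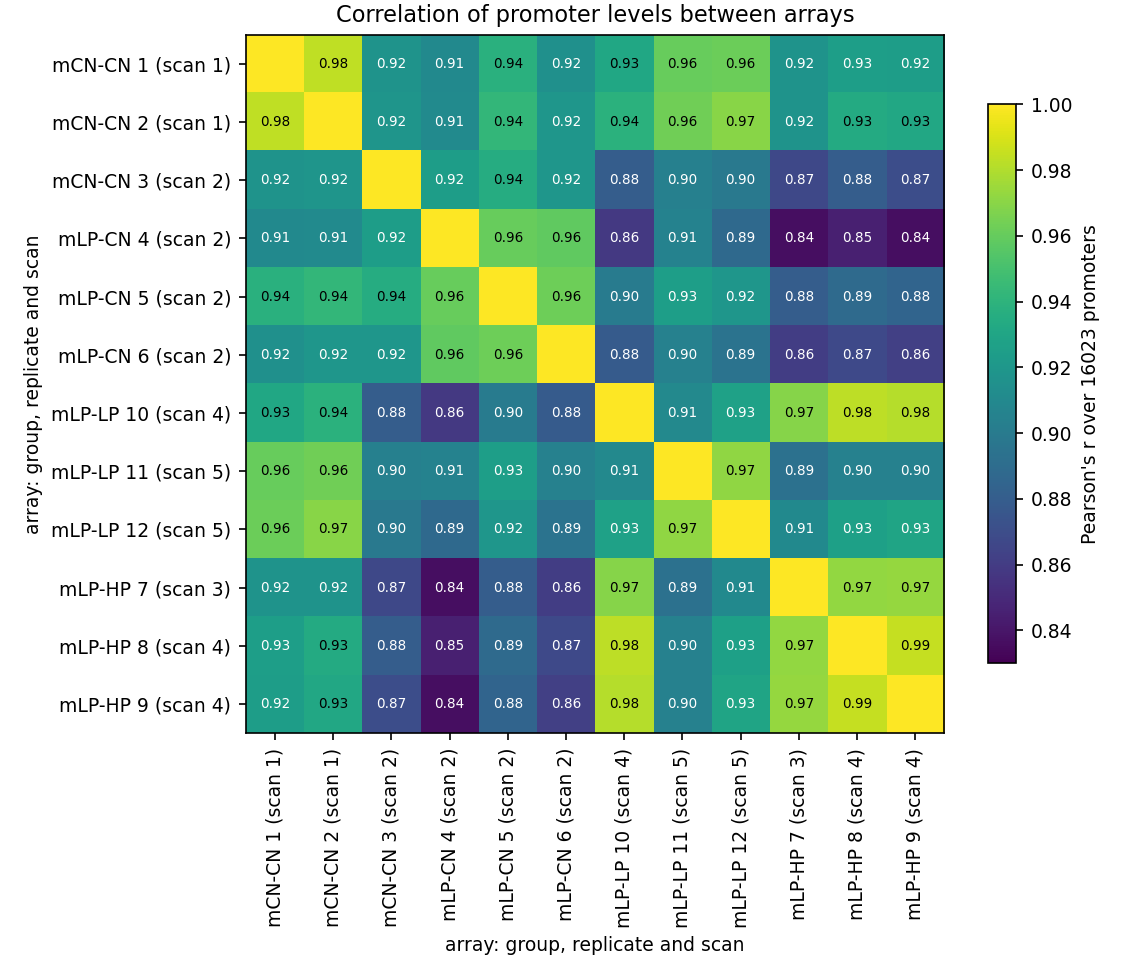
Pearson's correlation of promoter levels (log2 Cy5/Cy3) over 16023 promoters for each pair of the 12 arrays, with group, replicate and scan on both axes and r as colour and number. mLP-LP replicate 10 had r of 0.98 with the mLP-HP arrays of scan 4, and 0.91 and 0.93 with mLP-LP replicates 11 and 12.

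Compared with the mLP-CN group, the mLP-LP group had 1891 promoters with a higher and 1267 with a lower level in the limma fit on all 12 arrays (adjusted p under 0.05, Benjamini-Hochberg over 16023 promoters). The calls made up 19.7% of the promoters, with 11.8% higher and 7.91% lower, and 59.9% of the calls were higher. At an unadjusted p under 0.05 there were 5519. The changes were small in size, with a median difference of 0.24 (log2, range 0.15 to 0.68) among the higher and -0.23 (range -0.59 to -0.15) among the lower promoters, and a median SE of 0.06 in both. Over all promoters the median difference was 0.02 with an SD of 0.14. At the higher promoters 87.2% of the probes were well above background in both channels on every array of at least 1 compared group. At the lower promoters 44.2% were, against 70.5% over all promoters, and 20 of the lower promoters had no such probe. All 3 mLP-LP arrays lay above all 3 mLP-CN arrays at 1811 of the higher promoters, and below them at 1210 of the lower ones. At these promoters, which the mLP-CN and mLP-LP arrays chose, the mLP-CN median lay on one side of those of the other groups. At the higher promoters the median level was -0.06 in mLP-CN, compared with 0.10 in mCN-CN, 0.20 in mLP-LP and 0.21 in mLP-HP. At the lower promoters it was -0.03 in mLP-CN, compared with -0.19 in mCN-CN, -0.26 in mLP-LP and -0.31 in mLP-HP. Irrespective of the fit, the arrays did not overlap at 20.6% of all promoters with mLP-LP higher and at 15.1% with mLP-LP lower. The split of the calls depended on the scaling of the arrays. When arrays were only median-centred, the median difference of all promoters was 0.12 in place of 0.02, and 5793 promoters were higher against 318 lower.

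The number of calls was far smaller once the scan entered the fit. With the scan as a random block (consensus correlation 0.53), limma called 60 promoters, 0.374% of those tested, with 48 higher and 12 lower. At an unadjusted p under 0.05 there were 2685. All 60 were also called without the block and in the same direction, and they lay on 20 chromosomes. Their median difference in that fit was 0.42 (range 0.34 to 0.59) for the higher and -0.47 (range -0.56 to -0.37) for the lower promoters. In that fit the mCN-CN and mLP-HP arrays that shared a scan with the compared arrays also entered the estimated difference. Its median was 0.22 at the promoters first called higher and -0.19 at those first called lower. Leaving out 1 array also moved the number of calls, to 1463 without mLP-CN replicate 4, 1623 without mLP-CN replicate 6 and 1679 without mLP-LP replicate 12. The other 3 arrays changed it less, with 2490 to 3271 calls.

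The 2 promoters with the largest rises and the 2 with the largest falls among those with separated arrays and a probe well above background are given by position (rn4), because probes are not paired with genes in the files. A region at chr7:10466534-10468105 (4 probes) had levels of -0.55, -0.50 and -0.39 on mLP-CN replicates 4 to 6, and 0.37, 0.04 and 0.20 on mLP-LP replicates 10 to 12. The highest mLP-CN array lay below the lowest mLP-LP array, which the choice of these regions required. The difference was 0.68 ± 0.10 (SE, n = 3 arrays per group, limma adjusted p = 0.000613), and it passed the threshold with the scan as a random block (adjusted p = 0.0377). All 3 of its probes measured on every array were higher, by 0.51 to 0.84. Each channel was also normalized and fitted alone. The Cy5 channel then differed by 0.09 (limma adjusted p = 0.38) and the input channel by -0.12 (limma adjusted p = 0.27). Such channel differences are relative to the rest of the array and need not add up to that of the ratio. The mCN-CN arrays read 0.07, 0.05 and -0.30, and the lowest of them was replicate 3, the one scanned together with mLP-CN.

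At chr9:104276607-104278076 (5 probes) the mLP-CN arrays read -1.16, -1.21 and -1.28 and the mLP-LP arrays -0.43, -0.54 and -0.69. Every array was below the array-wide centre, and the groups did not overlap, which the choice of these regions required. The difference was 0.67 ± 0.09 (SE, limma adjusted p = 0.000428, or 0.0284 after the scan was added as a random block). Here the input channel also differed, by 0.52 (log2, limma adjusted p = 0.00401), and the Cy5 channel by 0.86 (limma adjusted p = 5.1e-05). The input signal relative to the rest of the array was thus not the same in the 2 groups. mCN-CN replicate 3 read -1.24 and mCN-CN replicates 1 and 2 read -0.79 and -0.85.

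The largest fall was at chr10:68563369-68565073 (6 probes), with 0.36, 0.33 and 0.38 on the mLP-CN arrays and -0.27, -0.28 and -0.15 on the mLP-LP arrays. The mCN-CN arrays, at 0.05, 0.01 and 0.12, lay between both groups, and the mLP-HP arrays, at -0.14, -0.26 and -0.23, lay within the range of the mLP-LP arrays or close to it. The difference was -0.59 ± 0.06 (SE, limma adjusted p = 3.7e-05, or 0.00761 after the scan was added as a random block). All 5 probes measured on every array were lower, by 0.37 to 0.90, although only 2 of the 6 probes were well above background in both channels on every array of at least 1 group. The input channel differed by 0.19 (limma adjusted p = 0.088) and the Cy5 channel by -0.09 (limma adjusted p = 0.30).

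A region of the X chromosome, of which male cells carry a single copy, at chrX:92118525-92119506 (5 probes) read 0.35, 0.25 and 0.38 on the mLP-CN arrays and -0.38, -0.11 and -0.24 on the mLP-LP arrays. The groups were separated, which the choice of these regions required, and replicates 10 and 11 were the extremes of the mLP-LP group. The difference was -0.57 ± 0.07 (SE, limma adjusted p = 0.000186, or 0.00798 after the scan was added as a random block). All of its probes were 60 bases long, and 1 of the 5 was well above background by the same criterion. The Cy5 channel alone differed by 0.01 (limma adjusted p = 0.92). This value was normalized on its own and rests mostly on dim probes, so it does not show whether the precipitated signal was lower. The input channel differed by 0.17 (limma adjusted p = 0.17). These 4 promoters kept their direction in the 21 to 24 alternatives that gave each a value. The filter on dim probes, with or without a new normalization, and the fit on 45-base probes left too few probes for a value at the regions of chromosomes 10 and X, and the minimum of 5 probes left out that of chromosome 7. None passed the threshold with Agilent's processed signals, with loess normalization, or with the values deposited by the authors and the scan as a random block, and the X-linked region did not without background correction either.

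**Figure D2:**
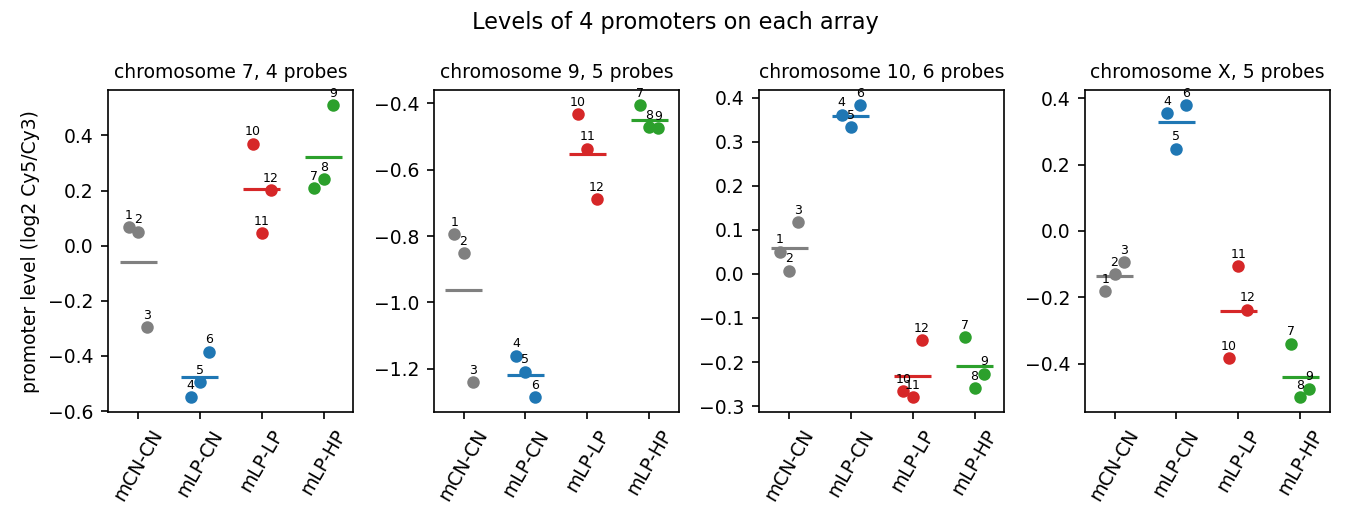
Levels (log2 Cy5/Cy3) of the 2 promoters that rose most and the 2 that fell most in mLP-LP compared with mLP-CN, 1 panel each with its own vertical scale, with 1 point per array labelled by its replicate number and a line at the group mean. At the promoters of chromosomes 7 and 9 mCN-CN replicate 3 lay apart from mCN-CN replicates 1 and 2 and nearer to the mLP-CN arrays.

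The direction of the difference followed the length of the probes. The array design varied probe length from 45 to 60 bases, and the longer probes were the dimmer ones, with 85.5% of 45-base probes but 20.8% of 60-base probes well above background. The higher promoters had a median probe length of 46.5 bases and the lower ones of 53.8, compared with 48.4 over all promoters. From the quintile of promoters with the shortest to that with the longest probes, the share called higher was 26.9%, 15.9%, 9.80%, 4.91% and 1.41%. The share called lower ran the other way, at 1.24%, 1.75%, 4.06%, 7.04% and 25.6%. The median difference passed from 0.10 ± 0.02 (SD over the 3 mLP-LP arrays) in the first quintile to -0.11 ± 0.04 in the last. In the last quintile the sign turned with probes well above background and no new normalization, at 0.095, and the median was -0.0076 with loess. Across promoters, Pearson's r of probe length and difference was -0.53 and Spearman's rho -0.51, where all points share the same 6 arrays.

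**Figure D3:**
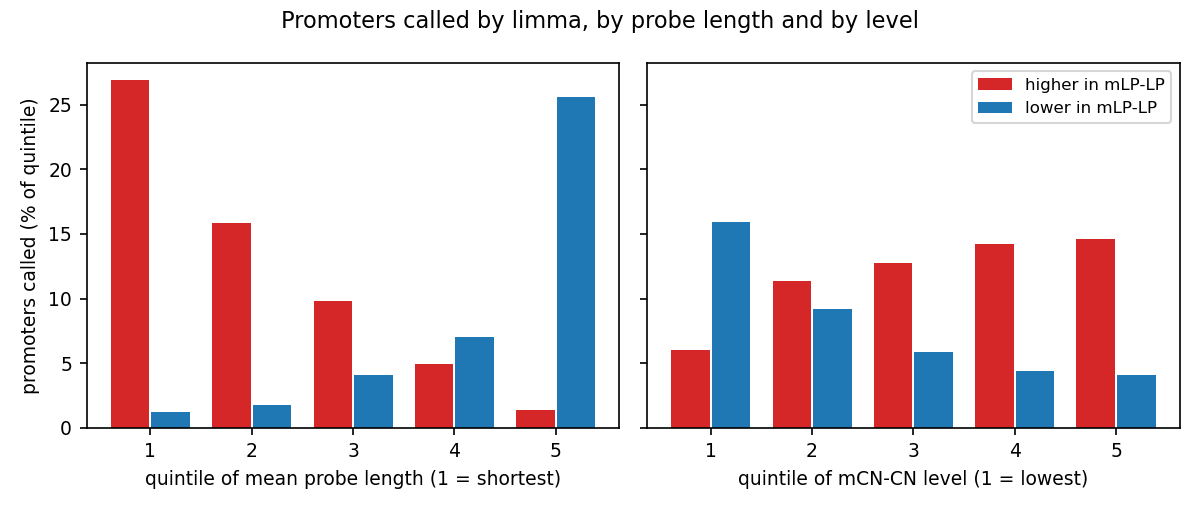
Share of promoters called higher (red) or lower (blue) in mLP-LP by limma, in % of each quintile of mean probe length (left) and of the level in the mCN-CN group (right). Calls went from 26.9% higher to 25.6% lower along probe length, a wider span than along the level.

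After quantile normalization each mLP-LP array showed this gradient, replicate 10 included. The median difference from the mLP-CN mean passed from 0.13 to -0.11 for replicate 10, from 0.09 to -0.07 for replicate 11 and from 0.09 to -0.14 for replicate 12. The single mLP-CN arrays departed from their own mean by at most 0.03 in either end quintile. How far the mLP-LP arrays agreed depended on the scaling. For the longest probes the median was -0.046 (SD over the mLP-LP arrays 0.10) with median centring alone. It was -0.075 (SD 0.17) with Agilent's processed signals and -0.0076 (SD 0.07) with loess. For the shortest probes these values were 0.24 (SD 0.06), 0.12 (SD 0.10) and 0.043 (SD 0.041). The mCN-CN array scanned together with mLP-CN, replicate 3, differed from mCN-CN replicates 1 and 2 in a related way, by 0.00 in the quintile of the shortest probes and by 0.09 in that of the longest, without a difference in diet. That mCN-CN array also had the most outlier spots of all arrays, at 16509. The part of the scan in the gradient was not tested.

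**Figure D4:**
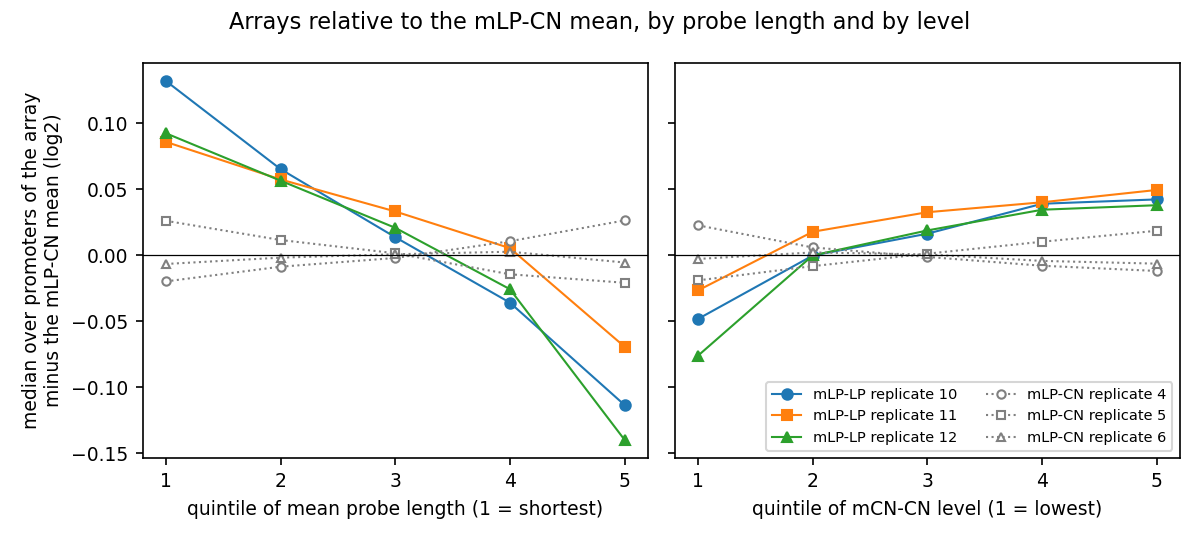
Median over promoters of each array's level minus the mLP-CN mean (log2) by quintile of mean probe length (left) and of the level in the mCN-CN group (right). Filled symbols are the 3 mLP-LP arrays, and open grey symbols the 3 mLP-CN arrays, each against the mean that contains it. After quantile normalization all 3 mLP-LP arrays fell along probe length, from between 0.09 and 0.13 to between -0.14 and -0.07.

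Among single probes measured on all arrays, mLP-LP was higher at 11898 (8.24% of 144380) and lower at 17232 (11.9%). Nearly all of these calls were lost with the scan as a random block, which left 25 higher and 1 lower. The 62341 probes of 45 bases had a median difference of 0.08, with 13.3% called higher and 6.95% lower. The median difference was -0.01 for probes of 46 to 48 bases, -0.08 for 49 to 52, -0.14 for 53 to 56 and -0.17 for 57 to 59. The 23318 probes of 60 bases had a median difference of -0.29, and 28.0% were called lower against 1.42% higher. The same contrast was seen inside promoters. In 7501 promoters that held both kinds of probe and were not called, 45-base probes had a median difference of 0.08 and probes of 57 to 60 bases one of -0.24. In 656 higher promoters the medians were 0.30 and -0.04, and in 729 lower promoters -0.11 and -0.37.

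When only probes of 45 bases were used and normalized again, the calls were 389 higher and 310 lower of 12577 promoters. Of these, 282 of the higher and 135 of the lower were called in the same direction with all probes. Among the promoters of the first calls that could be tested this way, 96.7% of the 1806 higher and 95.1% of the 487 lower had the same sign. With probes well above background on at least 6 of the 12 arrays, normalized again, 290 promoters were higher and 148 lower of 15511. The same filter without a new normalization left 4472 higher and 106 lower. It kept the sign at every one of the 1887 first higher calls it could test but at 72.5% of the 995 lower ones, and it called 15 promoters in the opposite direction. After the new normalization the sign was kept at 99.9% and 93.9%. With loess normalization of all probes it was kept at 92.1% of the higher and 73.8% of the lower promoters.

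The starting level was taken from the mCN-CN arrays, which are not part of the comparison. From the lowest to the highest quintile of this level, 6.02%, 11.4%, 12.7%, 14.2% and 14.6% of the promoters were called higher, and 15.9%, 9.18%, 5.90%, 4.43% and 4.12% were called lower. Promoters of low enrichment in the mCN-CN group thus held more of the falls, and those of high enrichment more of the rises. The median difference was -0.05 ± 0.02 (SD over the 3 mLP-LP arrays) in the lowest quintile and 0.04 ± 0.01 in the highest. With the filter on dim probes and no new normalization this order turned, to 0.15 in the lowest and 0.091 in the highest quintile. With all probes and the level from mCN-CN replicates 1 and 2 alone, the medians were -0.058 and 0.061. The shares called higher were then 5.09% and 17.3%. Pearson's r of level and difference across promoters was 0.19 (Spearman's rho 0.21), less than that of probe length, and level and probe length were themselves related, with an r of -0.62.

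Within promoters of similar probe length, except those with the longest probes, rises were more frequent at low levels and falls at high levels. In the quintile of the shortest probes, 36.0% of the 75 promoters of the lowest level and 20.8% of the 1466 of the highest level were called higher. In the middle quintile the share called higher passed from 16.2% to 7.01%, and the share called lower from 1.94% to 7.18%. Among the promoters with the longest probes, between 24.6% and 30.0% were called lower at every level, and 1.39% of the lowest and 3.33% of the highest level were called higher, the latter being 1 of 30. This level includes mCN-CN replicate 3, of the mLP-CN scan, and its part in the pattern was not tested. The pattern also depended on which arrays set the level. When the mLP-CN arrays themselves defined it, 12.9% of the lowest and 5.09% of the highest quintile were called higher, a choice in which the same arrays enter both the level and the difference. With the level from mLP-CN replicate 4 and the difference from replicates 5 and 6, the median difference was 0.01 in the lowest quintile and -0.01 in the highest.

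Most probes of a called promoter moved in its direction, but seldom all of them. In the higher promoters 70.5% of the probes had the sign of their promoter, and in the lower promoters 80.4%, compared with 58.6% in promoters not called. Every probe agreed in 141 higher (7.46%) and 180 lower promoters (14.2%). Position within the region made little difference. In higher promoters of 1200 to 2500 bp the median probe difference was 0.20 within 200 bp of the centre, 0.23 at 400 to 600 bp and 0.17 beyond 800 bp. In lower promoters it was -0.32 at the centre, where probes averaged 54.4 bases, and -0.26 to -0.30 farther out. Regions of 21 or more probes, 235 in all, had 3.83% higher and 13.6% lower, with probes of 51.2 bases on average.

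By chromosome, the X chromosome had the highest share of lower promoters. Of its 559 promoters 19.3% were lower and 6.44% higher, compared with 7.51% and 11.9% of the 15365 promoters on numbered autosomes. Its probes were also longer, at 50.4 bases on average against 49.1. Among promoters with the longest probes, 45.3% of 172 on the X chromosome and 24.5% of 2994 on autosomes were called lower. In the fourth quintile of probe length the shares were 9.88% and 6.93%, and in the shortest quintile 22.2% of 54 X-linked and 27.0% of 3136 autosomal promoters were called higher. The X chromosome had a median difference of -0.17 in the quintile of the longest probes, against -0.10 on autosomes, while the input channel differed by 0.02 and 0.05.

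Among the numbered autosomes, chromosome 20 had the highest share of higher promoters, with 17.3% of 474, followed by chromosome 7 with 15.6% of 1050. Chromosome 3 had 13.9% lower promoters, and chromosome 12 the fewest, with 2.57%. Probes averaged 47.6 bases on chromosome 12, and those of chromosome 3 were longer than the autosomal average of 49.1. By distance from the nearer of the outermost promoters of a chromosome, 11.4% were higher and 8.16% lower within 2 Mb, 15.9% and 5.01% between 2 and 5 Mb, and 10.9% and 8.63% beyond 20 Mb. The shares thus did not run evenly towards the ends. Probes averaged 49.1, 48.2 and 49.4 bases in these zones. The part of probe length in these shares was not tested apart from the X chromosome.

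**Figure D5:**
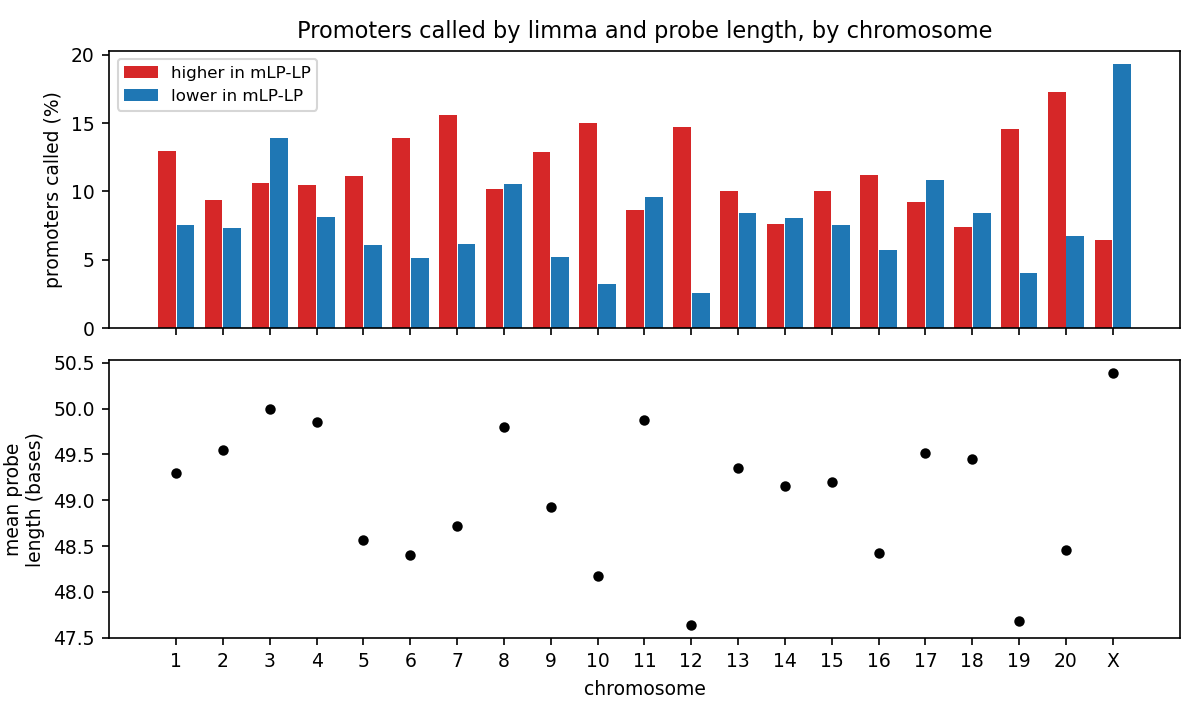
Share of promoters called higher (red) or lower (blue) in mLP-LP by limma, in % of the promoters of each chromosome (top), and mean probe length in bases (bottom, axis not starting at 0). The X chromosome had 19.3% lower promoters and the longest probes, at 50.4 bases.

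Called promoters were at times neighbours. The next promoter along the chromosome was called in the same direction for 16.6% of the higher promoters, against 11.8% of all promoters, and for 18.3% of the lower ones, against 7.91%. The shares over all promoters were not matched for probe length, and the part of probe length in this excess was not tested. There were 42 runs of at least 3 neighbouring promoters called higher and 47 called lower. The longest run of rises was at chr8:20946762-21093846, with 8 promoters and differences of 0.19 to 0.35. Its mean level was -0.06, -0.02 and -0.07 on the mLP-CN arrays and 0.24, 0.20 and 0.25 on the mLP-LP arrays. The mCN-CN arrays, at 0.16, 0.17 and 0.11, also lay above the mLP-CN arrays. The probes of this run averaged 46.2 bases and 90.3% of the 72 were well above background. The longest run of falls was at chr3:71974086-72329680, with 10 promoters and differences of -0.34 to -0.18. Its mean level was -0.36, -0.40 and -0.37 on the mLP-CN arrays and -0.58, -0.61 and -0.71 on the mLP-LP arrays. Its probes averaged 57.4 bases and 20.7% of the 82 were well above background. At every promoter of both runs the groups did not overlap. The runs consist of called promoters, and the groups did not overlap at 1811 of all 1891 higher and 1210 of all 1267 lower calls. This separation is therefore no further support. With the scan as a random block in limma, 0 of the 18 were called, whereas all were called without it.

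Each channel was also fitted alone, after its own median centring and quantile normalization. The differences of the channels therefore need not add up to the difference of the ratio. In the input channel alone limma called 301 promoters (1.88%), and in the Cy5 channel alone 990 (6.18%). The input count was 124 with the scan as a random block, and leaving out 1 array gave from 8 without mLP-CN replicate 6 to 738 without mLP-LP replicate 12. It was 21 and 23 without mLP-CN replicates 5 and 4, and 137 without mLP-LP replicate 10. Of the 1891 higher promoters 34 were called in the input channel and 289 in the Cy5 channel, with median channel differences of 0.00 and 0.11 compared with 0.03 and 0.04 over all promoters. Of the 1267 lower promoters 16 were called in the input channel and 31 in the Cy5 channel, with median differences of 0.05 and -0.02. These channel calls were counted in either direction. The share called in Cy5 was above that over all promoters in the higher set and below it in the lower set. The shares called in the input channel were no larger than that over all promoters. In both sets the median departed further from that of all promoters in Cy5 than in Cy3. The median difference of the ratio was 0.24 in the higher and -0.23 in the lower set, which these channel medians do not add up to.

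Replicate 10 was also set against the promoters that replicates 11 and 12 defined. Without replicate 10, limma called 2012 promoters higher and 1259 lower. Of the calls made with all arrays, 1462 higher and 958 lower were called again, 851 were called only without replicate 10, and 0 changed direction. At the 2012 promoters higher without it, replicate 10 exceeded the mLP-CN mean by a median of 0.17, against 0.25 and 0.24 for replicates 11 and 12, which had set the calls. It lay above all mLP-CN arrays at 76.7% of them and below all at 6.81%. Over all promoters these shares were 39.5% and 34.1%. The calls and the values of replicate 10 rest on the same 3 mLP-CN arrays, so that low or high mLP-CN values enter both, and these shares are a description and no independent check of replicate 10. At the 1259 promoters lower without it, its median was -0.19, and it lay below all mLP-CN arrays at 81.7% and above all at 5.32%. Against the same mLP-CN arrays, and with the spread taken from the other groups, replicate 10 alone gave 2449 calls, replicate 11 alone 638 and replicate 12 alone 1307.

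Regions were also called with a windowed Kolmogorov-Smirnov (KS) test modelled on the study's methods, which asks whether smoothed probe differences in a window of 1500 bp lie above or below those of the remaining array. This test reads the mean difference between the groups and not the spread between replicates, and smoothing ties neighbouring probes to each other. It gave 4289 hypermethylated and 4334 hypomethylated regions (DMRs) at a -log10 p of at least 2. Of the 16023 promoters, 25.2% held a hypermethylated and 24.3% a hypomethylated DMR. At 3056 of the 4289 hypermethylated and 3001 of the 4334 hypomethylated DMRs, all mLP-LP arrays lay on the same side of all mLP-CN arrays. The same arrays chose the DMRs, which favours such separation. Over all promoters the arrays did not overlap at 20.6% with mLP-LP higher and at 15.1% with mLP-LP lower. The median DMR had 5 probes, and the median differences were 0.25 and -0.23.

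The KS calls included most of the limma calls. Both methods read the same group difference from the same normalized probes, so this overlap is no independent check. A hypermethylated DMR was found in 89.0% of the promoters that limma called higher, and a hypomethylated one in 94.0% of those called lower. Conversely, limma called 41.6% of the promoters with a hypermethylated and 30.6% of those with a hypomethylated DMR. The probes of hypermethylated DMRs had a median length of 45.9 bases and those of hypomethylated DMRs of 52.7. By quintile of probe length from shortest to longest, hypermethylated DMRs were found in 44.4%, 33.2%, 25.9%, 16.6% and 5.75% of the promoters, and hypomethylated DMRs in 8.25%, 12.9%, 18.9%, 27.6% and 53.9%. By level, the share with a hypermethylated DMR was 13.4% in the lowest quintile and 29.8% in the highest, and the share with a hypomethylated DMR was 38.4% and 16.5%. In 181 promoters, with a median length of 4287 bp, DMRs of both directions were present.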

How the data were processed

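MeDIP-chip arrays of rat kidney DNA were analysed, 3 per group. The deposited scanner files hold, per the file headers, intensity values of Cy5 (precipitated) and Cy3 (input) DNA from Agilent Feature Extraction 11.0.1.1 with positions in build rn4, and 6856 control spots per array. They also hold deposited log10 ratios of Agilent's processed signals, and those signals were an alternative. The deposited series table holds the authors' normalized log2 values. Per the study's methods these were median-centred, quantile normalized and smoothed, and they had Spearman's rho of 0.81 to 0.87 with the scanner log2 ratios and column medians of -0.03 to 0.02, but their exact steps are not given in the sources used here. Median signals were background-corrected (normexp, offset 50), outlier spots were set to missing (250 to 7623 on the 6 arrays), and log2 ratios were median-centred and quantile normalized. mCN-CN replicate 3 had the most outlier spots of all arrays, at 16509. Array weights were lowest for it (0.21) and for mLP-LP replicate 10 (0.24). Probes less than 1000 bp apart were joined, regions of at least 3 probes were averaged, with each probe centred so that a missing spot did not shift the mean, and all 12 arrays were fitted with limma 3.58.1 in R 4.3.3 (8 residual df, adjusted p under 0.05). The KS test used Python 3.11.15 and scipy 1.17.1, smoothing over 500 bp to either side, runs of at least 2 probes and merging within 500 bp. The scan was used as a random block (duplicateCorrelation), since no scan held both groups. Named regions had an adjusted p under 0.05, arrays not overlapping and at least 1 probe well above background, and were ranked by difference. Levels were split into quintiles of promoters. Scripts were tested on simulated data. The comparison, its rules and its alternatives were chosen with earlier results of these data known. Genes were not analysed here, because no gene table of build rn4 was used. The number of arrays limits the precision.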

Additional observations from a re-analysis of the deposited data

How the results depend on the processing

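The number of promoters called by limma depended on the processing more than on any single array. Without background correction there were 125 (104 higher, 21 lower), with the authors' log2 values 147 (100 and 47), with loess and no quantile step 1 (1 and 0, against 1478 before adjustment of p), and with Agilent's processed signals 0 (0 and 0, against 2027 before adjustment). Median centring alone gave 6111 (5793 and 318), array weights 5581 (3089 and 2492), and the filter on dim probes 4472 higher and 106 lower. With the scan as a random block there were 60 (48 and 12), and with the authors' table and that block 0 (0 and 0, against 978 before adjustment). That last fit was chosen after seeing the data, as were all alternatives for the shortest and longest probes, the level from mCN-CN replicates 1 and 2, each mLP-LP array alone and the following fits, namely the dim filter normalized again, 438 (290 and 148), 45-base probes alone, 699 (389 and 310), replicate 11 alone, 638 (505 and 133), and replicate 12 alone, 1307 (716 and 591). Leaving out each of the 6 arrays compared, or mCN-CN replicate 3 (added after seeing the data), gave 1463 to 4196 calls, 948 to 2451 higher and 515 to 1745 lower. The median of probes, at least 5 probes, and the 6 arrays alone kept the total within 1.5 times the first count.

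In the input channel the block left 124 calls, and leaving out each array gave 8 to 738. Among probes there were 1521 higher and 737 lower without background correction, 25 and 1 with the block, and 5066 to 14944 higher and 7189 to 16575 lower on leaving out each array. The KS test gave 645 and 778 regions without smoothing and 2236 and 2317 at a -log10 p of at least 3, and its other counts stayed within 1.5 times.

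The median difference in the lowest quintile of level was -0.019 without background correction, -0.0021 with centring alone, -0.016 with loess, 0.15 with the dim filter and 0.013 with the level from mLP-CN replicate 4. In the highest quintile it was 0.033 without background correction, 0.22 with centring alone, 0.096 with processed signals, 0.028 with the authors' values, 0.091 with the dim filter, -0.014 with the level from replicate 4, 0.051 with the level from all 12 arrays and 0.061 with that from mCN-CN replicates 1 and 2. For the shortest probes it was 0.067 without background correction, 0.24 with centring alone, 0.043 with loess, 0.062 with the authors' values and 0.17 with the dim filter, and for the longest -0.049, -0.046, -0.0076, -0.061 and 0.095. The cause of these shifts was not tested. Leaving out each array gave -0.06 to -0.03 and 0.040 to 0.054 in the lowest and highest level quintiles, and 0.09 to 0.12 and -0.12 to -0.09 for the shortest and longest probes. No paired analysis was possible because the groups share no replicate numbers.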
